A study of Mus musculus with 26 samples.

Results

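AP-1 is a dimeric transcription factor, and this report follows the transcripts of 8 genes that encode its subunits in rd10 mouse retina under inhibitors of chromatin-modifying enzymes. The genes are Fos, Fosb, Fosl1 and Fosl2 of the Fos family, Jun, Junb and Jund of the Jun family, and Atf3. The group is defined by gene name, and was chosen with earlier results of these data known. Each symbol matched a single Ensembl gene, which makes 8 of the 37991 genes in the table of counts.

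RNA-seq was carried out at postnatal day (PN) 24 on 22 retina samples and on 4 samples of sorted rods. All mice carried the rd10 mutation of Pde6b, a gene for a subunit of the rod phosphodiesterase, so no sample represents a healthy retina. Retinas came from the strain B6.CXB1-Pde6brd10/Jrd10. Mice were injected intraperitoneally from PN9 to PN24 with an inhibitor or, as controls, with saline or diluent. Doses differed between inhibitors. Injections were daily per the study's methods, while its results describe DZNep as given daily at first and later every other day. The DZNep experiment had 4 control and 2 treated retina samples, the UNC1999 experiment 3 and 3, the UNC0642 experiment 2 and 2, and the Romidepsin experiment 3 and 3. The study used DZNep and UNC1999 as inhibitors of EZH2, which trimethylates histone H3K27, and they are called EZH2 inhibitors here in that sense. UNC0642 inhibits G9A/GLP, which methylates H3K9, and Romidepsin inhibits histone deacetylases (HDAC). Rods were sorted by FACS from mice homozygous for rd10 and for the transgene of B6.Cg-Tg(Nrl-EGFP)1Asw/J, in which the Nrl promoter drives EGFP in rods. Of these, 2 samples came from controls and 2 from mice treated with the LSD1 inhibitor GSK2879552 (GSK). Mice of both sexes were used, and the labels do not say how many animals went into a sample. UNC1999 was given in a mixture with DMSO, PEG300 and Tween-80. For its controls the study's text on RNA-seq names saline, while a figure legend names only diluent for the mice of the stained sections. If the RNA-seq controls received saline, the effect of this vehicle and that of UNC1999 cannot be told apart. On some labels the number at the end of the strain name or of the compound name goes up from library to library, and groups were therefore taken from the sample titles.

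Fos proteins dimerize only with partners such as the Jun proteins, whereas Jun proteins also pair among themselves and with ATF proteins, and the dimers bind AP-1 or cAMP response elements in DNA. Fos, Fosb, Junb and Atf3 are immediate-early genes, which cells transcribe within minutes of growth factors, depolarization or stress, without new protein synthesis. Fosl1 (Fra-1) usually follows later and is itself a target of AP-1, and Jund is expressed more constantly in most tissues. In the retina, AP-1 genes are known to respond to bright light and to injury, in photoreceptors as well as in Müller glia.

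Counted reads ran from 13732959 to 36354094 per retina sample and from 7289460 to 19864491 per sample of sorted rods, and values are given as CPM, the count of a gene scaled to the total of its library. The floor of 3 counts was 0.0825 to 0.412 CPM. Floors cover counting error only. Before any treatment was considered, the controls of the experiments differed from each other. The summed level of 5 reactive gliosis markers was 2275 to 2836 CPM in the UNC0642 controls, against 330 to 561 CPM in the DZNep controls, 365 to 1008 CPM in the Romidepsin controls and 770 to 1412 CPM in the UNC1999 controls. The summed level of 8 rod markers was 7585 to 7763 CPM in the UNC0642 controls and 13257 to 32038 CPM in the other control retinas. In sorted rods the same rod markers summed to 40285 to 65614 CPM, and none of them was at 0 throughout. The sorted rod controls also held transcripts of the 6 cone markers (1735 to 3068 CPM in sum) and of the 5 bipolar cell markers (404 to 574 CPM). In the same controls the 6 Müller glia markers summed to 94.2 to 146 CPM and the 7 microglia markers to 23.1 to 35.7 CPM.

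Promoter sequences are shown because these genes are known for control through short elements near the start. RefSeq promoters (GRCm38.p6) were at hand for 7 members, with no entry for Fosl1. Below are the 120 bases before the annotated start of the 5 members whose window holds a cAMP response element core (TGACG on either strand) or the related element TGACNTCA, in capitals, written 5′ to 3′ on the strand of the gene.

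Fos, chr12:85473770-85473889, plus strand: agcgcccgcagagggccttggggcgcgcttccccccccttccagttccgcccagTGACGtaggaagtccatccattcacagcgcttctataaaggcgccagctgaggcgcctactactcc
Fosb, chr7:19310046-19310165, minus strand: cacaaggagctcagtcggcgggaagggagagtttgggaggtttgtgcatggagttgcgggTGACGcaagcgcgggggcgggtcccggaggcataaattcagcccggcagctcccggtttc
Junb, chr8:84978749-84978868, minus strand: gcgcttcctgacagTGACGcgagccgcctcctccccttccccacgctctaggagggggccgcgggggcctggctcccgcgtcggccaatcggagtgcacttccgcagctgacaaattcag
Atf3, chr1:191183334-191183453, minus strand: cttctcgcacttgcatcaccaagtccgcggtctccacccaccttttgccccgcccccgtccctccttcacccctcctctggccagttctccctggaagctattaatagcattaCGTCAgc
Jun, chr4:95052223-95052342, minus strand: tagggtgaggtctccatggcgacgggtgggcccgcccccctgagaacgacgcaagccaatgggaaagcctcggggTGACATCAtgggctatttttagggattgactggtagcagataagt

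Counted back from the start, TGACG lay at bases 66 to 62 in Fos, 60 to 56 in Fosb and 106 to 102 in Junb, and its reverse complement CGTCA lay at bases 7 to 3 in Atf3. The Fos promoter held another TGACG at bases 129 to 125, and the sequence TATAAA at bases 33 to 28. In Jun the only match was TGACATCA at bases 45 to 38. Over the 250 bases before the start, on both strands, 17.8% of all 32851 promoters held TGACG, 7.49% held TGACNTCA and 12.4% held TATAAA. The AP-1 element TGANTCA, held by 6.75% of all promoters, was in none of the 7 members. Fosl2 and Jund had no match to any of these letters in that window. TGACGT, which overlaps TGACG, was in Fos and Atf3 and in 6.47% of all promoters. These matches describe letters in the sequence and not sites shown to be bound.

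Levels in control samples were compared between genes per length, as CPM divided by the exon length in kilobases (RPKM), on a scale shared by all libraries. In the DZNep controls Jund was the most abundant member at 39.1 ± 3.02 RPKM (SD, n = 4). It was followed by Fos (21.6 ± 2.41), Junb (21.0 ± 1.59) and Jun (18.5 ± 0.848), whose ranges overlapped from each to the next. Atf3 (4.22 ± 1.44) and Fosl2 (3.30 ± 0.383) also overlapped, Fosb was at 1.91 ± 0.256 and Fosl1 was lowest at 0.486 ± 0.146 RPKM. The Romidepsin controls (n = 3) had the same order except that Fos, at 18.0 ± 3.53 RPKM, came after Junb (23.9 ± 8.65) and Jun (20.4 ± 2.04), with overlapping ranges, and Jund was again highest at 40.5 ± 2.09 RPKM. In the UNC0642 controls (n = 2) and the UNC1999 controls (n = 3) Junb was highest, at 57.4 ± 9.91 and 57.3 ± 21.1 RPKM, and Jund was at 43.8 ± 1.18 and 32.5 ± 6.06 RPKM.

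**Figure D1:**
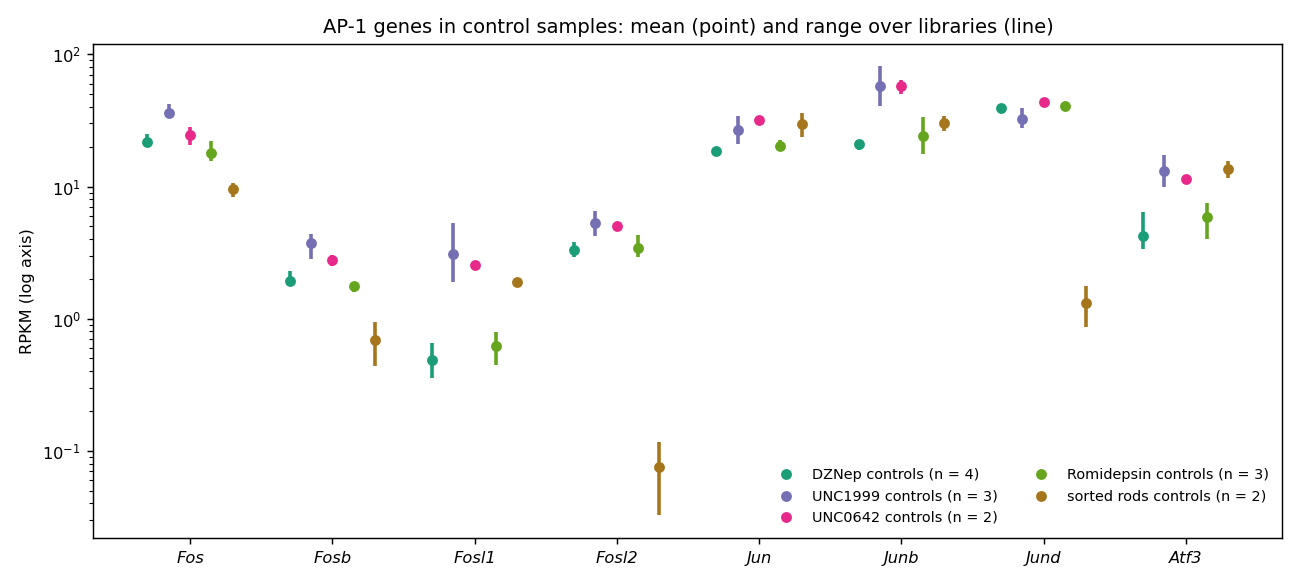
Level of each AP-1 gene in the control samples of the 5 experiments, as RPKM on a log axis, where points are means and lines run from the lowest to the highest library. Fosl2 and Jund sit far lower in sorted rods (0.0748 and 1.32 RPKM) than in any control retina, and Junb, Atf3 and Fosl1 sit higher in the UNC1999 and UNC0642 controls than in the DZNep controls.

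The same genes therefore started from different levels in different experiments. Mean Junb in controls was 38.0 CPM for DZNep and 43.2 CPM for Romidepsin but 104 CPM for both UNC0642 and UNC1999. Mean Fosl1 was 0.830 and 1.05 CPM against 4.36 and 5.23 CPM, and mean Atf3 was 8.38 and 11.7 CPM against 22.8 and 25.8 CPM in the same order. The levels of Junb, Fosl1, Atf3 and Fosb in the UNC0642 and UNC1999 controls did not overlap those in the DZNep and Romidepsin controls. Those of Fos, Fosl2, Jun and Jund did. These levels are given without a test, and the share of all genes that separate in the same way was not counted. The separation can therefore not be read as particular to these genes. The UNC1999 libraries belong to a library series (H-50) of their own, and the UNC0642 controls to that of DZNep and Romidepsin (G-981), in which they also had the highest gliosis markers. The part of gliosis in these levels was not tested. In bulk samples, fewer cells of a type and less RNA per cell cannot be told apart.

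In sorted rod controls (n = 2) Junb (30.1 ± 5.47 RPKM) and Jun (29.9 ± 8.99 RPKM) were highest and overlapped. Atf3 followed at 13.5 ± 2.80 RPKM and Fos at 9.52 ± 1.63 RPKM. Jund, among the 3 highest members in each group of control retinas, was at 1.32 ± 0.652 RPKM, and Fosl2 was at 0.0748 ± 0.0599 RPKM. Sorted rods differed from retina in dissociation, sorting and the library kit named in the methods of the study as well as in cell type, and these cannot be told apart.

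The comparison of Romidepsin with saline asked what HDAC inhibition does to transcription in the degenerating retina. Of the 8 AP-1 genes, 4 rose and none fell: Fosb, Fos, Junb and Fosl1 were higher by 2.94-fold to 9.04-fold. All 8 had a positive log2 fold change. Of all 16049 genes tested, 0.573% were higher and 0.174% lower at an adjusted p under 0.05, the threshold used throughout, in the quasi-likelihood test of edgeR after Benjamini-Hochberg adjustment. The p-values measure the spread between samples that the titles call biological replicates. The median log2 fold change of the 8 members was 1.51, against -0.00881 over all genes tested. The study itself named Fosb, Fosl1 and Junb as raised under this inhibitor and UNC0642 on these samples. It also named Gadd45a, Gadd45b and Myc, which appear below. The direction of all these genes is therefore not independent evidence.

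Fos (ENSMUSG00000021250, chr12:86814840-86818223 of NCBIM37, plus strand) is the founding member of the family and forms the classical AP-1 dimer with Jun. It was at 38.5, 53.5 and 39.8 CPM in the controls and at 94.6, 149 and 208 CPM in the treated retinas. All treated retinas were above all controls, with the highest level in treated replicate 3. Fos was higher by a log2 fold change of 1.78 (SE 0.270, 3.43-fold, edgeR adjusted p = 0.0338).

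Fosb (ENSMUSG00000003545, chr7:19888070-19895394, minus strand) gives rise to the long-lived splice form ΔFosB in neurons that are stimulated repeatedly; counts per gene do not separate the forms. It was at 6.98, 7.32 and 6.17 CPM in controls and at 13.7, 22.2 and 24.2 CPM under Romidepsin, with no overlap. The log2 fold change was 1.55 (SE 0.228, 2.94-fold, edgeR adjusted p = 0.0311). Fosl1 (ENSMUSG00000024912, chr19:5447703-5455945, plus strand) lacks the transactivation domain of Fos. It was barely expressed in controls, at 1.10, 1.39 and 0.791 CPM, which is 15 to 26 counts, and stood at 4.75, 14.7 and 10.3 CPM in treated retinas. Its log2 fold change of 3.18 (SE 0.437, 9.04-fold, edgeR adjusted p = 0.0277) was the largest of the members. Of the 1707 exon bases of Fosl1, 1162 overlap the antisense gene Ccdc85b, and since no source says whether strand was used in counting, reads there cannot be assigned with certainty. Ccdc85b itself was at 51.1 to 58.3 CPM in controls and 49.01 to 66.1 CPM in treated retinas (log2 fold change 0.02, adjusted p = 0.946).

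Junb (ENSMUSG00000052837, chr8:87500811-87502617, minus strand), a gene of a single exon, encodes a Jun protein that activates transcription less strongly than Jun and can hold back its activity. It was at 33.2, 62.9 and 38.3 CPM in controls and at 135, 277 and 244 CPM under Romidepsin. The lowest treated retina was thus above the highest control, and the log2 fold change was 2.28 (SE 0.315, 4.87-fold, edgeR adjusted p = 0.0277).

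The other 4 members missed the threshold. Atf3 (ENSMUSG00000026628, chr1:192994175-193007219, minus strand), a stress-induced factor that marks injured retinal neurons, was at 8.35, 15.2 and 12.9 CPM in controls and 24.04, 45.7 and 31.7 CPM in treated retinas, with no overlap (log2 fold change 1.47, SE 0.279, adjusted p = 0.0561). Jun (ENSMUSG00000052684, chr4:94715725-94718913, minus strand), the partner activated by JNK kinases, was at 65.9, 74.5 and 62.0 CPM in controls and 91.7, 137 and 142 CPM in treated retinas (0.87, SE 0.175, adjusted p = 0.0589). Jund (ENSMUSG00000071076, chr8:73221638-73224515, plus strand) was at 129, 116 and 117 CPM in controls and 137, 228 and 185 CPM in treated retinas (0.60, SE 0.177, adjusted p = 0.117). Groups did not overlap for Atf3, Jun and Jund either, so that 7 of the 8 members had all treated retinas above all controls, against 13.5% of all genes tested, and 12.5% the other way. Fosl2 (ENSMUSG00000029135, chr5:32438845-32460204, plus strand), known as Fra-2, was the exception, with 19.1, 25.7 and 17.7 CPM in controls and 36.3, 25.5 and 37.6 CPM in treated retinas (0.67, SE 0.200, adjusted p = 0.121). All 8 members had an unadjusted p under 0.05, as had 19.4% of all genes.

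**Figure D2:**
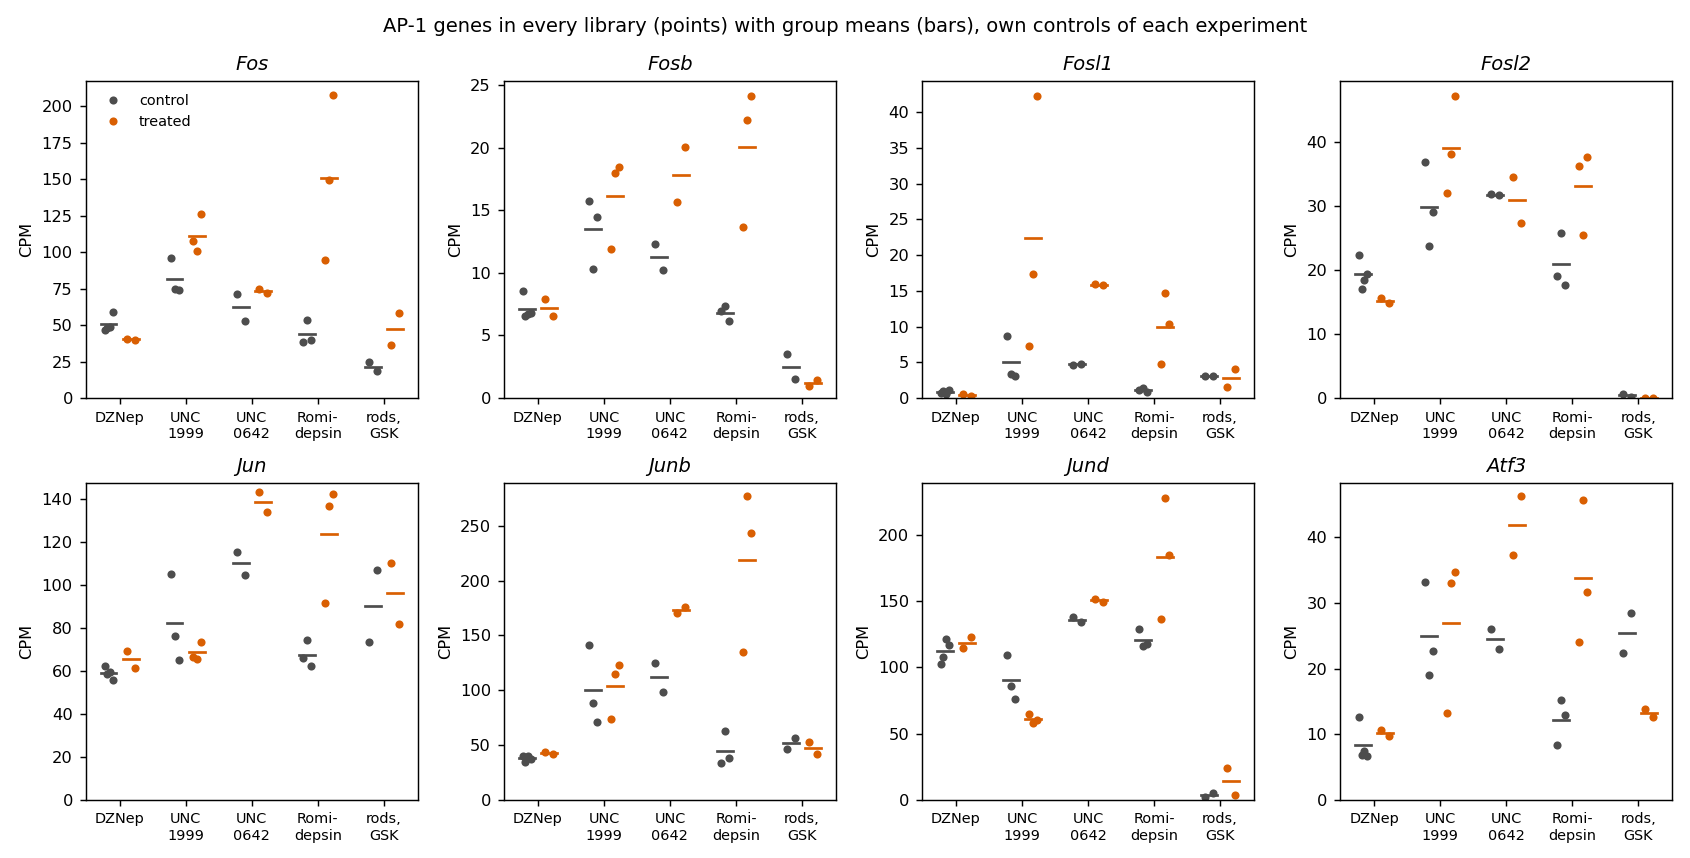
CPM of each of the 8 AP-1 genes in every library, with a panel for each gene, a point for each library and a bar for each group mean, controls in grey and treated samples in orange. Under Romidepsin every member but Fosl2 has all treated retinas above all controls, from 134.5 to 277.3 CPM against 33.2 to 62.9 CPM for Junb, while under DZNep treated and control points lie close together.

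The number of members that passed depended on single libraries in this comparison of 3 with 3. It fell from 4 to 0 without control replicate 2, control replicate 3 or treated replicate 3 (0% of all genes higher in each) and to 2 without control replicate 1 (0.128%), and was 7 without treated replicate 1 (1.97%), while the log2 fold changes stayed at 1.48 to 2.02 for Fos, 1.40 to 1.77 for Fosb, 2.79 to 3.51 for Fosl1 and 2.08 to 2.62 for Junb. All 8 passed with the likelihood ratio test used by the study and with DESeq2, by which 4.09% and 3.72% of all genes were higher. Müller glia markers summed to 4661 to 5688 CPM in controls and 3373 to 4013 CPM in treated retinas and reactive gliosis markers to 365 to 1008 and 829 to 1175 CPM (all 5 with a positive log2 fold change), while none of either list passed the test. Of the microglia markers (192 to 302 and 144 to 209 CPM in sum) none of 7 passed. Of 5 bipolar cell markers (1806 to 1933 and 1120 to 1397 CPM) Grm6, the glutamate receptor of ON bipolar cells, fell by 0.98 on the log2 scale (adjusted p = 0.0338). All 8 rod markers had positive (13257 to 21729 and 20664 to 28287 CPM) and all 6 cone markers negative log2 fold changes (790 to 1353 and 401 to 901 CPM), with none passing. The part of these cell types in the change of the AP-1 genes was not tested.

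UNC0642 was compared with saline to ask whether blocking H3K9 methylation by G9A/GLP changes transcription in rd10 retina. None of the 8 AP-1 genes passed at this sample size of 2 and 2, and neither did any of the 16321 genes tested, which is 0%. At an unadjusted p under 0.05 there were 5 members (14.7% of all genes), and 3 members passed with the likelihood ratio test (0.6% of all genes higher) and 1 with DESeq2 (0.656%), in which the adjusted p of Fosl1 is not available. In 7 of 8 members both treated retinas were above both controls, against 26.9% of all genes, and in none were both below, against 25.2%. The median log2 fold change of the members was 0.48, against -0.00139 over all genes.

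Fosl1 showed the largest difference, with 4.601 and 4.82 CPM in the controls and 15.9 and 15.8 CPM in the treated retinas. The gap was far wider than the spread within either group, yet its adjusted p was 0.128 (log2 fold change 1.75, SE 0.144, 3.37-fold). Its antisense neighbour Ccdc85b was at 59.7 and 55.8 CPM in controls and 66.6 and 76.7 CPM in treated retinas, a log2 fold change of 0.31 (adjusted p = 0.304). Fosb was at 12.3 and 10.2 CPM in controls and 15.6 and 20.03 CPM in treated retinas (0.66, SE 0.172, adjusted p = 0.299). Fos itself, at 71.4 and 52.8 CPM against 74.5 and 72.2 CPM, differed by a log2 fold change of only 0.24 (SE 0.142, adjusted p = 0.444).

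Of the Jun family, Junb was at 125 and 98.8 CPM in the UNC0642 controls and 171 and 176 CPM in the treated retinas (log2 fold change 0.63, SE 0.115, adjusted p = 0.299). Jun was at 115 and 105 CPM in controls and 143 and 134 CPM in treated retinas (0.33, SE 0.0806, adjusted p = 0.299), and Jund at 138 and 134 CPM and at 152 and 149 CPM (0.15, SE 0.0652, adjusted p = 0.351). These control levels of Junb lay between the highest control (62.9 CPM) and the lowest treated retina (135 CPM) of the Romidepsin experiment, each experiment being scaled on its own. Atf3 was at 26.1 and 23.0 CPM in controls and 37.3 and 46.3 CPM in treated retinas (0.76, SE 0.129, adjusted p = 0.299). Fosl2, at 31.8 and 31.7 CPM against 34.4 and 27.3 CPM, was the only member whose groups overlapped and whose log2 fold change was negative (-0.04, SE 0.123, adjusted p = 0.907).

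The count of members higher under UNC0642 depended on the controls. It was 3 without control replicate 1 (0.214% of all genes) and 1 without control replicate 2 (0.0418%), with edgeR's quasi-likelihood test, and 0 without either treated retina. It was 6 when all 9 saline retinas of the G-981 libraries served as controls (5.81% of all genes), of which the UNC0642 controls had the highest levels of Junb, Atf3 and Fosl1. Summed reactive gliosis markers were 2275 to 2836 CPM in controls and 1783 to 2408 CPM in treated retinas, all 5 with a negative log2 fold change and none passing, and their part in the values was not tested.

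DZNep, used by the study as an EZH2 inhibitor, was compared with saline in 4 control and 2 treated retinas. Only Fos passed and it fell, to 0.793-fold of its controls, whereas 12.9% of the 16477 genes tested were higher and 9.72% lower. With 1 of 8 members lower, the count lay near the share of all genes and is no result about the group. The direction of Fos was not that of the Romidepsin experiment, while 5 members had a positive and 3 a negative log2 fold change. The median log2 fold change of the 8 members was 0.06, against -0.00057 over all genes. No member was higher at the adjusted threshold with edgeR's quasi-likelihood test, the likelihood ratio test (12% of all genes higher) or DESeq2 (10.9%), and 4 had an unadjusted p under 0.05 in either direction, against 36.5% of all genes.

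Fos was at 46.5, 48.3, 48.8 and 59.0 CPM in controls and at 40.2 and 40.1 CPM in treated retinas. Both treated values lay under every control, and the log2 fold change was -0.34 (SE 0.0949, edgeR adjusted p = 0.0348). The call was lost without control replicate 3, treated replicate 1 or treated replicate 2, at log2 fold changes between -0.38 and -0.25 over all libraries left out in turn. Fosl2 had a fold change of the same size, from 22.3, 17.1, 18.5 and 19.3 CPM to 15.5 and 14.9 CPM (-0.34, SE 0.107, adjusted p = 0.0514). Fosl1 was at 0.637, 0.966, 0.600 and 1.11 CPM in controls and 0.554 and 0.298 CPM in treated retinas (-0.84, SE 0.405, adjusted p = 0.169). The latter are 19 and 4 counts, and a value this near the floor carries a wide counting error.

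Fosb (6.58 to 8.56 CPM in controls, 7.91 and 6.55 CPM in treated retinas) and Jund (102.5 to 122 and 115 to 123 CPM) had log2 fold changes of 0.03 (SE 0.147, adjusted p = 0.898) and 0.08 (SE 0.0708, adjusted p = 0.450). Jun was at 55.7 to 62.0 CPM in controls and 69.2 and 61.3 CPM in treated retinas (0.15, SE 0.0650, adjusted p = 0.121). Junb, at 39.9, 34.2, 40.1 and 37.1 CPM in controls, was above all of them at 44.0 and 41.6 CPM (0.18, SE 0.0748, adjusted p = 0.115). Groups did not overlap for Junb alone among higher members, against 24.4% of all genes, and for Fos, Fosl1 and Fosl2 among lower ones, against 21.5%. Atf3 was at 12.6 CPM in control replicate 1 and 6.69 to 7.38 CPM in the other controls, and at 10.7 and 9.68 CPM in treated retinas (0.29, SE 0.245, adjusted p = 0.419). Without that control, 1 member passed as higher, Atf3, with 14.5% of all genes. Its treated values then lay above all remaining controls. In these retinas all 8 rod markers rose (15755 to 26579 CPM in sum in controls, 48691 and 49954 CPM treated), and 5 of 6 Müller glia markers fell (5028 to 5669 and 4044 to 4382 CPM), as did 2 of 5 reactive gliosis markers (330 to 561 and 260 to 312 CPM). Bipolar cell markers (1727 to 1887 and 1452 to 1544 CPM) fell in 4 of 5 cases and horizontal cell markers (124 to 136 and 101 to 109 CPM) in 2 of 3, and 4 of 6 markers of the retinal pigment epithelium rose (47.1 to 138 and 184 to 218 CPM). Their part in the fall of Fos was not tested.

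UNC1999 was used as the more specific EZH2 inhibitor. None of the 8 members passed in 3 control and 3 treated retinas with edgeR's quasi-likelihood test, where 0.501% of 15775 genes were higher and 0.101% lower. At an unadjusted p under 0.05 there were 3 members (23.6% of all genes). With the likelihood ratio test 2 members passed as higher (5.32% of all genes) and 1 as lower (5.08%), and with DESeq2 1 (4.98%) and 1 (4.25%). The median log2 fold change of the members was 0.20, against -0.00199 over all genes.

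Jund was at 109, 85.6 and 76.3 CPM in controls and at 64.5, 57.7 and 60.5 CPM in treated retinas. All treated values lay under all controls (log2 fold change -0.57, SE 0.126, adjusted p = 0.0603), and Jund passed as lower without control replicate 3, with 8.5% of all genes. Fos took the other direction, from 95.8, 74.9 and 74.2 CPM to 108, 100.5 and 126 CPM, also with no overlap (0.45, SE 0.122, adjusted p = 0.0845). These were the only members whose groups did not overlap, 1 in each direction, against 13.9% of all genes higher and 13.6% lower. Of the 2878 exon bases of Jund, 543 overlap the antisense gene Gm11175, which was at or under 0.924 CPM in all 6 libraries.

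Fosl1 had the largest log2 fold change under UNC1999 (2.18, SE 0.641, adjusted p = 0.0985) and also the widest spread. It was at 8.67, 3.35 and 3.14 CPM in controls and at 7.33, 17.4 and 42.2 CPM in treated retinas, so that treated replicate 1 lay under control replicate 1. Without treated replicate 3 the log2 fold change was 1.32. Its antisense neighbour Ccdc85b lay the other way, at 40.7 to 53.9 CPM in controls and 30.8 to 39.2 CPM in treated retinas. Fosl2 (23.8 to 36.8 and 32.0 to 47.1 CPM, 0.40, adjusted p = 0.239), Fosb (10.3 to 15.8 and 11.9 to 18.5 CPM, 0.27, adjusted p = 0.478) and Jun (64.9 to 105 and 65.6 to 73.5 CPM, -0.26, adjusted p = 0.368) overlapped between groups. Junb (70.6 to 142 and 73.7 to 123 CPM) and Atf3 (19.0 to 33.2 and 13.2 to 34.7 CPM) had log2 fold changes of 0.06 (SE 0.271) and 0.13 (SE 0.346), and their sign turned when single libraries were left out. Control replicate 1 was the highest control for every member, and treated replicate 1 the lowest treated retina for Fosl1, Fosl2, Fosb, Junb and Atf3. Summed reactive gliosis markers were 770 to 1412 CPM in controls and 250 to 875 CPM in treated retinas, with all 5 lower and none passing. The 8 rod markers summed to 16862 to 32038 and 43771 to 59351 CPM, with none passing, and 5 of 6 markers of the retinal pigment epithelium rose (102 to 115 and 334 to 383 CPM in sum). The part of these cells in the values was not tested.

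**Figure D3:**
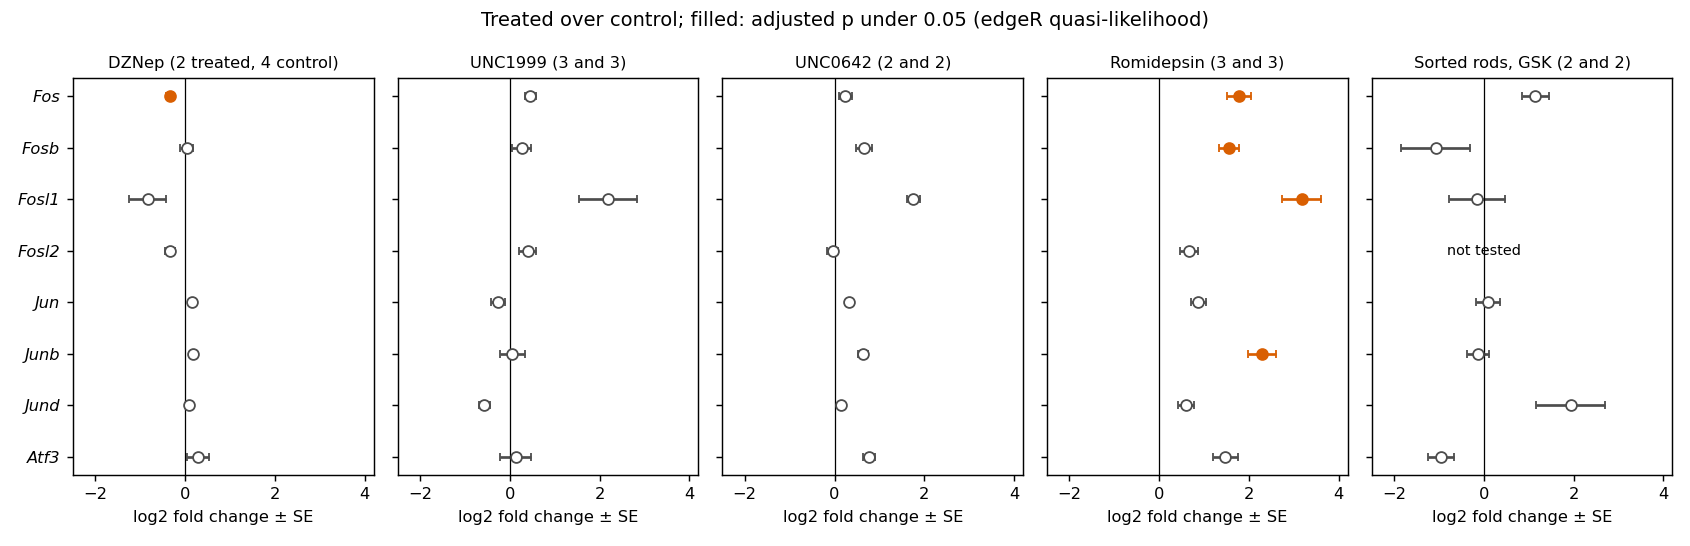
Log2 fold change of each AP-1 gene, treated over control, with its standard error from edgeR in the 5 experiments, where filled orange points passed at an adjusted p under 0.05. Under Romidepsin Fos, Fosb, Fosl1 and Junb are filled at 1.55 to 3.18, under DZNep Fos is filled at -0.34, and no point is filled in the other experiments.

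Sorted rods addressed what LSD1 inhibition changes within rods. Of the 8 members 7 had enough counts to be tested and none passed, with edgeR's quasi-likelihood test, the likelihood ratio test or DESeq2. Of all 14478 genes tested 0% passed with the quasi-likelihood test, and 0.318% and 0.214% were higher by the other tests. At an unadjusted p under 0.05 there were 3 members, Fos, Jund and Atf3, against 4.91% of all genes. Fos was at 24.5 and 18.2 CPM in controls and 36.4 and 58.0 CPM in rods of GSK-treated mice, with no overlap (log2 fold change 1.15, SE 0.307, adjusted p = 0.773). Atf3 lay the other way, with 22.3 and 28.5 CPM in controls and 13.8 and 12.6 CPM in treated rods (-0.95, SE 0.291, adjusted p = 0.894). Groups that did not overlap were 15.9% of all genes in the direction of Fos and 17.3% in that of Atf3.

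Jund in sorted rods rested on a single library. It was at 2.41 and 4.74 CPM in controls and at 24.1 CPM in treated replicate 1 but 3.63 CPM in treated replicate 2. In the same treated replicate 1 the overlapping antisense gene Gm11175 was at 11.0 CPM, against 0.669 to 1.23 CPM in the other 3. The log2 fold change of Jund was 1.93 (SE 0.766, adjusted p = 0.987), it was -0.00092 without that library, and Jund passed as higher without treated replicate 2 (log2 fold change 2.71, with 1.24% of all genes higher). Without treated replicate 1 it was Fos that passed (1.46, with 0.225%). Fosb was at 3.48 and 1.52 CPM in controls and 0.936 and 1.41 CPM in treated rods (-1.07, SE 0.770, adjusted p = 0.987).

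Junb, at 46.2 and 56.7 CPM in controls and 52.7 and 41.5 CPM in treated rods, Jun, at 73.2 and 107 CPM and at 110 and 81.7 CPM, and Fosl1, at 3.08 and 3.10 CPM and at 1.61 and 4.04 CPM, all overlapped, with log2 fold changes of -0.13 (SE 0.244), 0.09 (SE 0.259) and -0.16 (SE 0.628). The transcript BC042782, which shares 232 exon bases with Jun on the other strand, was at 12.7 to 19.1 CPM in sorted rods and 0.792 to 2.12 CPM in retina samples. Fosl2 was not tested, as it had 5 and 3 counts in controls and 0 and 0 in treated rods. A count of 0 allows up to 0.151 and 0.308 CPM in the treated libraries at the floor of 3 counts, against 0.669 and 0.176 CPM measured in the controls, so that a difference was not detectable at this depth. The 8 rod markers summed to 40285 to 65614 CPM in controls and 48715 to 55838 CPM in treated rods. The 5 reactive gliosis markers summed to 141 to 214 CPM in controls and 44.1 to 55.5 CPM in treated rods, and the 6 cone markers to 1735 to 3068 and 1076 to 1467 CPM. Their part in the values of Fos and Atf3 was not tested.

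Whether a member responded differently to different inhibitors was tested directly, as the difference between log2 fold changes in a fit of all 22 retina libraries, for 6 pairs of inhibitors. Fos and Junb passed between Romidepsin and each of the EZH2 inhibitors, but against DZNep the number of members passing depended on single libraries, as given below. With a library left out, DZNep less Romidepsin stayed at -2.36 to -1.82 for Fos and -2.43 to -1.88 for Junb. Against UNC1999 the difference passed for 5 members, with 5.11% of 17274 genes passing. The effect under UNC1999 less that under Romidepsin was -2.23 for Junb (95% interval -3.04 to -1.41, adjusted p = 0.00564), -1.33 for Fos (-1.93 to -0.731, adjusted p = 0.0130), -1.29 for Fosb (-1.92 to -0.664, adjusted p = 0.0195), -1.17 for Jund (-1.59 to -0.758, adjusted p = 0.00510) and -1.13 for Jun (-1.58 to -0.685, adjusted p = 0.00730). For Fosl1, which was higher in the means of both experiments, the difference was -1.01 (-2.63 to 0.604, adjusted p = 0.470). These experiments belong to different library series, and their inhibitors were given in different vehicles. Neither can be told apart from the inhibitors. On the shared scale, mean levels in the UNC1999 and Romidepsin controls also differed, at 104 and 43.2 CPM for Junb and 84.6 and 42.3 CPM for Fos. They were 14.0 and 6.57 CPM for Fosb, 85.0 and 65.0 CPM for Jun and, the other way, 93.6 and 116 CPM for Jund. The part of these starting levels in the differences was not tested.

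DZNep and Romidepsin were in the same library series and both in saline. They differed in dose and, per the study's results, in schedule, with DZNep later given every other day and Romidepsin daily. Dose and schedule cannot be told apart from the inhibitors. The difference passed for 2 members, with 0.289% of all genes passing. The effect under DZNep less that under Romidepsin was -2.11 for Fos (95% interval -2.75 to -1.47, adjusted p = 0.00690) and -2.10 for Junb (-2.97 to -1.24, adjusted p = 0.0365). All 8 differences were negative and all had an unadjusted p under 0.05. The share of all genes at that unadjusted threshold was not counted for any pair of inhibitors, so this count cannot be read against a background. The largest was that of Fosl1, at -4.003 (-6.18 to -1.83, adjusted p = 0.0949). The number that passed was 1 in 11 and 2 in 5 of the 22 fits that left out a library, 0 without DZNep treated replicate 2 (0.0224% of all genes), 3 without UNC1999 control replicate 2, UNC1999 control replicate 3 or UNC1999 treated replicate 3, 4 without UNC1999 treated replicate 1 (0.691%) and 6 without Romidepsin treated replicate 1 (3.81%).

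Between UNC0642 and Romidepsin no difference passed, with 0.0174% of all genes passing, and 2 members passed with the likelihood ratio test (0.99%). All 8 effects were smaller under UNC0642. The difference was -1.66 for Junb (95% interval -2.56 to -0.755, adjusted p = 0.1198), -1.54 for Fos (-2.22 to -0.868, adjusted p = 0.0637), -0.90 for Fosb (-1.61 to -0.199) and -1.44 for Fosl1 (-3.22 to 0.351). The interval reached 0 for Fosl1, Atf3 and Jund, and lay below 0 for the other 5 members. Between the EZH2 inhibitors no member passed either (0.00579% of all genes), and none with the likelihood ratio test. The difference was -0.78 for Fos (-1.41 to -0.154) and 0.65 for Jund (0.228 to 1.08), DZNep less UNC1999. No member passed for DZNep less UNC0642 (0.0232% of all genes) or UNC1999 less UNC0642 (0.0116%), and none with the likelihood ratio test. At an unadjusted p under 0.05 there were 5 members for UNC0642 less Romidepsin and 4 for DZNep less UNC1999. There were 1 for DZNep less UNC0642 and 2 for UNC1999 less UNC0642. The share of all genes at this unadjusted threshold was not counted, so these counts cannot be read against a background or as differences between inhibitors. With p-values adjusted over all genes and the 6 pairs together, 4 members passed for UNC1999 less Romidepsin (1.51% of all genes), 3 for DZNep less Romidepsin (0.359%) and 1, Fos, for UNC0642 less Romidepsin (0.289%).

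The 8 members were also added up per library, to give their summed level and the share of each. The summed level of the 8 members was 119 ± 15.0 RPKM in Romidepsin controls and 321 ± 91.6 RPKM in treated retinas (SD, n = 3). Junb made up 20.5% ± 4.58 of this sum in controls and 37.2% ± 2.91 in treated retinas, and Jund 35.8% ± 5.62 and 20.1% ± 2.34, without overlap in either case. Under UNC0642 the sum was 194 ± 20.6 RPKM in controls and 263 ± 1.82 RPKM in treated retinas (n = 2). It was 110 ± 4.24 (n = 4) and 112 ± 1.62 RPKM (n = 2) for DZNep, 171 ± 44.5 and 185 ± 35.8 RPKM (n = 3) for UNC1999, and 82.4 ± 12.1 and 89.6 ± 8.52 RPKM (n = 2) in sorted rods. The share of Fosl1 was 1.63% ± 0.5684 in UNC1999 controls and 6.53% ± 4.25 in treated retinas, reaching 11.2% in treated replicate 3. In the same experiment Jund made up 18.5% ± 1.28 and 11.8% ± 2.86 of a sum that overlapped between groups. In sorted rods, where the sums overlapped too, Fos was at 11.3% ± 3.95 of the sum in controls and 22.8% ± 9.44 in treated rods, and Atf3 at 15.5% ± 0.370 and 7.43% ± 0.243, neither overlapping between groups. These sums and shares are descriptions without a test.

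**Figure D4:**
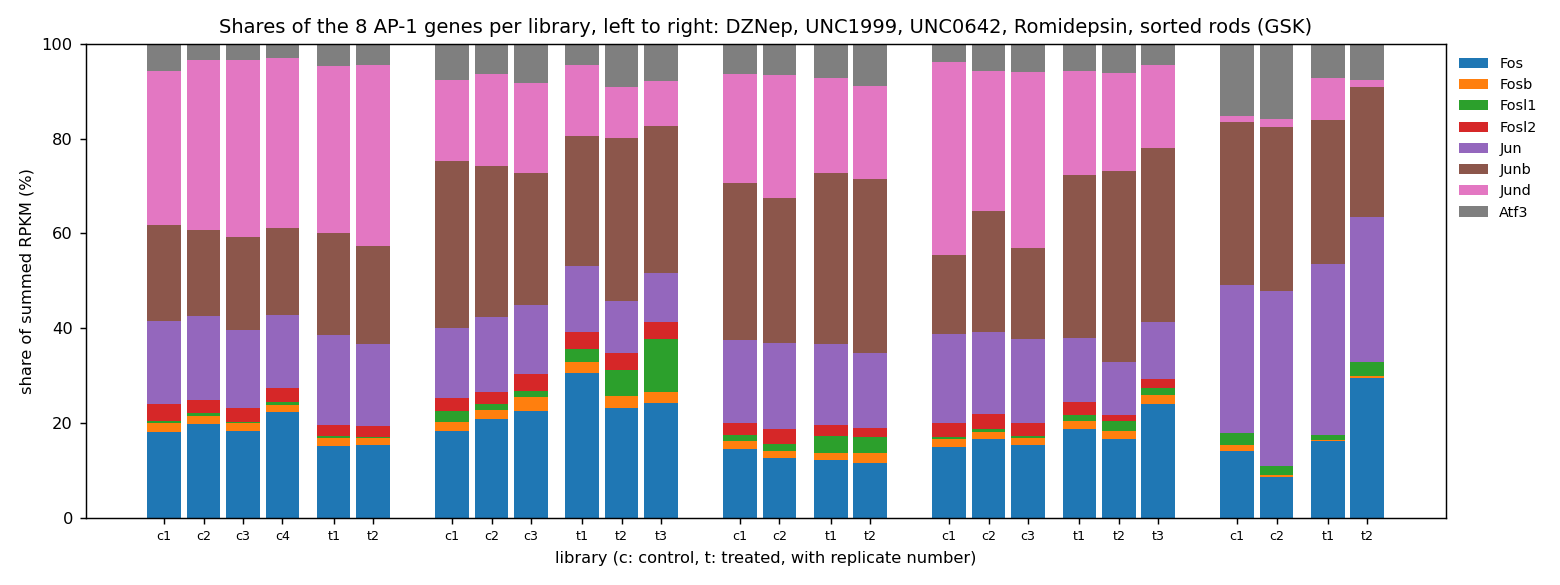
Share of each AP-1 gene in the summed RPKM of the 8 members, with a stacked bar for each library, ordered by experiment with controls (c) before treated samples (t). Junb takes 34.5% to 40.3% in Romidepsin-treated retinas against 16.7% to 25.6% in their controls, and in sorted rods Fosl2 takes 0% to 0.155% and Jund 1.13% to 1.81% except for 8.74% in treated replicate 1.

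Other genes around AP-1 were followed by lists. Of 24 other immediate-early genes, all tested under Romidepsin, 9 rose and none fell, where 0.573% of all genes rose and 0.174% fell. Without control replicate 2, control replicate 3 or treated replicate 3, 0% of all genes were higher. The median log2 fold change of the 24 was 0.88 against -0.00881 over all genes. The 3 with the smallest p-values were Gadd45b (a stress-response gene, 2.49, edgeR adjusted p = 0.0269), Ier3 (1.70, adjusted p = 0.0277) and the nuclear receptor gene Nr4a1 (1.27, adjusted p = 0.0277). Gadd45b was among the genes that the study named as raised on these samples. Under DZNep 5 of these 24 rose and 6 fell, where 12.9% of all genes rose and 9.72% fell. There Egr1, a zinc-finger factor induced by the same signals as Fos, fell by 1.78 on the log2 scale (adjusted p = 0.00029), from 143 to 197 CPM to 45.9 and 47.1 CPM. In the same retinas Ier3 (0.91, adjusted p = 0.00127) and the growth-arrest gene Gadd45a (0.68, adjusted p = 0.00247) rose. None of the 24 passed under UNC0642 or UNC1999, with 20 and 14 positive log2 fold changes, and none of the 16 tested in sorted rods.

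Of 18 MAP kinases and their kinases, which relay signals to AP-1, none passed in any experiment except Mapk10 (JNK3), which fell by 0.34 on the log2 scale under DZNep (adjusted p = 0.0186). Of 12 transcription factors that drive Fos and Jun genes, none passed under Romidepsin, UNC0642, UNC1999 or GSK. Under DZNep 5 of the 12 rose and 1 fell (12.9% and 9.72% of all genes), led by Mef2c (1.09, adjusted p = 0.00224), Mef2d (0.36, adjusted p = 0.00345) and Mef2a (0.23, adjusted p = 0.0069). Of 13 MAP kinase phosphatases and feedback inhibitors, Spry2, an inhibitor of receptor tyrosine kinase signaling, rose under Romidepsin (0.91, adjusted p = 0.0277) and UNC1999 (0.71, adjusted p = 0.0496), and under DZNep 4 of 13 rose (12.9% of all genes), led by Dusp14 (0.82), Spry2 (0.39) and Dusp5 (0.30), at adjusted p-values of 0.00182, 0.00187 and 0.00887. None of this list passed under UNC0642 or GSK.

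Of 13 other bZIP partners of AP-1, 11 were tested under Romidepsin and the small Maf gene Maff rose, from 1.51 to 2.19 CPM in controls to 4.19 to 6.40 CPM (1.57, adjusted p = 0.0362). Under DZNep Atf4, the factor of the integrated stress response, rose (0.39, adjusted p = 0.0017) and Jdp2, a repressor that pairs with Jun, fell by 0.43 on the log2 scale (adjusted p = 0.0157). No gene of this list passed under UNC0642, UNC1999 or GSK. Of 17 genes known as AP-1 targets, 12 were tested under Romidepsin and none passed, with 10 positive log2 fold changes and a median of 0.66. Under DZNep 3 of the 11 tested fell (9.72% of all genes), namely Cd44 (-1.25, adjusted p = 0.0002), Timp1 (-1.38, adjusted p = 0.00593) and Spp1 (-0.56, adjusted p = 0.0188), which are also expressed by glia and immune cells. None passed under UNC0642 (14 tested), UNC1999 (12 tested) or GSK (6 tested).

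Each library's deviation from its own experiment's control mean was then compared with the mean deviation of the 8 members across the 22 retina libraries. The 5 genes other than members with the highest Pearson r were Lif (0.962), a cytokine released by Müller glia and known to protect photoreceptors, the survival gene Mcl1 (0.956), the immediate-early gene Ier2 (0.954), the transcription factor gene Myc (0.951) and the phosphatase gene Ptpn1 (0.951). Among members r ran from 0.606 for Jund and 0.742 for Fosl2 to 0.970 for Junb and 0.971 for Fosb, which are part of the mean. The points share treatments, library series and controls, and r is given as a description of 22 libraries over 17274 genes.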

How the data were processed

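Gene-level counts of 26 libraries were used as deposited; no column was left out. Per the study's methods and the submitters' processing notes, the authors demultiplexed reads (the notes name bcl2fastq for all samples, the methods bclconvert for sorted rods), trimmed adapters, aligned reads with HISAT2 (2.2.1) and made counts with HTSeq (0.11.2) on the Ensembl annotation of NCBIM37. Whether counting used strand is not given in the sources used here. For sorted rods the labels name the same stranded mRNA kit as for retina and the study's methods a SMART-Seq kit. Gene symbols matched 37205 of 37991 identifiers. No pair of replicates agreed within sampling noise (23 pairs).

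Each inhibitor was compared with its own controls by edgeR (4.0.16, R 4.3.3), with filterByExpr, TMM factors, the quasi-likelihood test and Benjamini-Hochberg adjustment over all genes tested. The study used the likelihood ratio test of edgeR, which is given as an alternative. CPM are counts scaled by TMM factors within an experiment, and RPKM of controls use factors over all 26 libraries. Differences between inhibitors came from a fit of the 22 retina libraries. DESeq2 (1.42.0), RLE factors, other filters, other controls and leaving out each library were alternatives. Likeness used log2 CPM with a prior count of 2. The fits were tested on simulated counts.

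Genes that DESeq2 gives no adjusted p count as tested and not called. The members and lists were chosen with earlier results of these data known. Named genes are the 8 members, up to 3 genes of each list with the smallest p-values among those passing in a comparison, and the 5 genes most like the members; markers and overlapping antisense genes are given beside results they touch. Tfap2a and Tfap2b of the marker lists matched no symbol.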

Additional observations from a re-analysis of the deposited data

Results flagged for a closer look

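In the DZNep controls, Fosb (8.56 CPM) and Atf3 (12.6 CPM) in control replicate 1 stood apart from the other 3 controls, with gaps of 0.905 and 0.882 of the whole range of the group, above the critical value of Dixon's test for 4 samples. This group of 4 was tested for each of the 8 members, and chance marks about 1 group in 20.

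Of the differences between the effects of 2 inhibitors, 7 passed in the fit of the 22 retina libraries with edgeR's quasi-likelihood test. Under DZNep less Romidepsin they were -2.11 for Fos and -2.10 for Junb on the log2 scale. Under UNC1999 less Romidepsin they were -1.33 for Fos, -1.29 for Fosb, -1.13 for Jun, -2.23 for Junb and -1.17 for Jund. All 7 were negative, with the larger log2 fold change under Romidepsin.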

How the results depend on the processing

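Of 493 alternative values of single members, 384 kept their direction and side of the threshold, 66 passed only in the alternative, 21 no longer passed and 22 changed sign. With the likelihood ratio test 8 members were higher under Romidepsin, 3 under UNC0642 and 2 under UNC1999, and 2 were lower under DZNep and 1 under UNC1999. DESeq2 gave 8 higher under Romidepsin, 1 under UNC0642 and 1 under UNC1999, where 1 was lower. Without a filter on low counts 5 were higher under UNC0642, 2 under UNC1999 and 2 in sorted rods, and 2 were lower under DZNep and 1 under UNC1999. Requiring 10 counts in every library gave 2 lower under DZNep, and requiring a log2 fold change above 1 in size gave 0. With all 22 retina libraries in a single fit 8 were higher under Romidepsin, 1 higher and 1 lower under UNC1999, and 0 lower under DZNep. With the 9 control retinas of G-981 as controls 7 were higher under Romidepsin, 6 under UNC0642 and 0 lower under DZNep. There the log2 fold changes of Fosb (-0.087), Jun (-0.11), Junb (-0.35) and Atf3 (-0.32) under DZNep and of Fosl2 (0.39) under UNC0642 changed sign. Of all genes, 8.92% were higher under Romidepsin with all 22 libraries and 6.65% with the 9 controls, and 1.92% under UNC0642 and 0.677% in sorted rods without a filter. The causes of these shifts were not tested. Member counts in this section without a share of all genes for the same setting, here or above, cannot be read against a background. Under DZNep 9.72% of all genes were already lower with edgeR's quasi-likelihood test.

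Same-numbered samples did not deviate together in all pairs (r from -0.313 to 0.268 in UNC1999, -0.351 to 0.255 in Romidepsin, -0.226 to 0.000 in DZNep, 0.226 in UNC0642, -0.099 in sorted rods), so numbers were not taken as pairs. The replicate block gave 0 lower under DZNep (Fosb -0.064), 4 higher under UNC0642, 5 higher under Romidepsin and 1 for DZNep less Romidepsin.

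For DZNep less Romidepsin the likelihood ratio test gave 5 members and no filter 4, and for UNC0642 less Romidepsin these gave 2 and 1. Spearman's rho kept 3 of the 5 genes most like the members. Leaving out libraries, members higher ranged from 0 to 7 under Romidepsin, 0 to 3 under UNC0642, 0 to 1 under DZNep and 0 to 1 in sorted rods, members lower from 0 to 1 under DZNep and 0 to 1 under UNC1999, and differences from 0 to 6 for DZNep less Romidepsin and 0 to 2 for UNC0642 less Romidepsin. Log2 fold changes that changed sign ranged from -0.13 to 0.15 for Fosb under DZNep, from -0.091 to 0.45 for Atf3 and -0.13 to 0.39 for Junb under UNC1999, from -0.22 to 0.12 for Fosl2 under UNC0642, and in sorted rods from -0.93 to 0.39 for Fosl1, -0.16 to 0.39 for Jun, -0.31 to 0.034 for Junb and -0.00092 to 2.71 for Jund. Where this left 1 sample in a group, that sample was assumed to vary like the others. Depth limits Fosl1 under DZNep (4 to 29 counts) and Fosl2 in sorted rods.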
